A study of Mus musculus with 6 samples.

Results

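The anterior HoxA genes named for lung are Hoxa2, Hoxa3, Hoxa4, Hoxa5, Hoxa6 and Hoxa7, which lie next to each other on mouse chromosome 6. Probe sets belonged to them when the platform annotation gave one of these 6 symbols and no other. This rule found 10 probe sets of 5 genes among 34945 single-gene probe sets of 18193 genes. Hoxa6 had no such probe set, so no value is given for it. RNA had been measured on 6 Affymetrix arrays in cells of lungs from 4-month-old female mice on a Bl6/129 mixed background, with 3 arrays from mice labelled Bmi1 mutant (genotype Bmi1 null) and 3 from mice labelled Bmi1 wild-type. The live cells had been sorted as negative for CD31 and CD45, which mark endothelial and hematopoietic cells, with no growth in culture. The labels speak of biological replicates but do not state how many mice gave a sample or what part of Bmi1 the null allele lacks. A p value here therefore measures the spread between arrays.

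Hox genes encode homeodomain transcription factors that give cells their position along the body axis. They sit in clusters, and their order in the cluster follows the order in which they are switched on from head to tail, so that genes at the 3′ end act in the head and neck and genes at the 5′ end in the posterior trunk and limbs. The lung arises from the anterior foregut and its mesenchyme is known for activity of the 3′ and middle HoxA genes, of which Hoxa5 is required for normal trachea and lung formation in the mouse. Polycomb repressive complex 1, of which the Bmi1 protein is a subunit, keeps Hox genes silent where they are not used, and mice without Bmi1 are known for shifts of vertebral identity.

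The promoters of 5 of the 6 genes (Hoxa2, Hoxa3, Hoxa5, Hoxa6 and Hoxa7) were found in RefSeq, build GRCm38.p6. The printed windows of 250 bases upstream of the gene start were chosen because Hoxa5 and Hoxa7 are the genes whose arrays separated by genotype and Hoxa2 opens the group on the 3′ side. Capitals mark CG dinucleotides, the dinucleotide that makes up the CpG islands on which Polycomb complexes are known to gather. The windows are chr6:52164832-52165081, chr6:52204588-52204837 and chr6:52218574-52218823, all on the minus strand.
Hoxa2: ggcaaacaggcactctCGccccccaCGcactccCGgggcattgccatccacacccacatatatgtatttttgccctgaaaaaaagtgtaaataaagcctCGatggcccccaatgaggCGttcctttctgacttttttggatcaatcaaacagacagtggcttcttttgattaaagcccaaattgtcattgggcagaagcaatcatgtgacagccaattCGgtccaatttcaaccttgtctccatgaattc
Hoxa5: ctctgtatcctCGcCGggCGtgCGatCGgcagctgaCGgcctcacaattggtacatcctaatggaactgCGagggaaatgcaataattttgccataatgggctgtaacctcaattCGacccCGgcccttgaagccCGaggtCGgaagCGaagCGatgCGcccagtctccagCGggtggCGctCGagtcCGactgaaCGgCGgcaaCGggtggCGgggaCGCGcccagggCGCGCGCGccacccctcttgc
Hoxa7: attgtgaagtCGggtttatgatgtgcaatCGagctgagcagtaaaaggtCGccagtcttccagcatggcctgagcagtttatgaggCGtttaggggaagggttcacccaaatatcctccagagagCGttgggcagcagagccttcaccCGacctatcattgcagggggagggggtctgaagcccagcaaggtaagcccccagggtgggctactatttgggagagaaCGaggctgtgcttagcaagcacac

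The members' promoters differed in CG content among themselves. The Hoxa5 window held 28 CG dinucleotides, and 7.61% of 32851 mouse promoter windows of this length held at least as many. The Hoxa6 window held 24 and the Hoxa3 window 18, which 12% and 21.7% of windows reached. The Hoxa7 window held 7 and the Hoxa2 window 6, against a median of 6 over all windows. On both strands, the composite motif TGATTNAT, which Hox proteins are known to bind with Pbx cofactors, was present once in the Hoxa2 window, read as ATCAATCA on the printed strand, and in 2.82% of all windows. Neither it nor the retinoic acid receptor hexamer AGGTCA, present in 14% of all windows, was found in the windows of Hoxa3, Hoxa5, Hoxa6 or Hoxa7, and Hoxa2 also lacked AGGTCA.

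Bmi1 itself did not read lower in the arrays labelled mutant. One of its probe sets, 1417493_at, averaged 1446 ± 151 in mutant-labelled and 1047 ± 102 in wild-type arrays, and the other, 1448733_at, 665 ± 147 in mutant-labelled and 588 ± 83.4 in wild-type arrays (SD, n = 3 each). Where these probes lie relative to the missing part is not given in the sources used here, so the directions rest on the labels. Signals are linear intensities scaled by the authors to nearly the same trimmed mean on each array. Between 47.7% and 50.3% of probe sets per array read below 100, and no detection calls were used here, so a low signal is not read as absence. In such a mixed sample, fewer cells of a type and less RNA per cell cannot be told apart.

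From Hoxa2 to Hoxa5 no member was shown to differ between the genotypes, while Hoxa7, at the border to the posterior genes, read 2.76 times higher by the mean in the mutant-labelled arrays without passing the threshold. By limma on log2(signal + 16), with Benjamini-Hochberg adjustment over all 18193 genes and a threshold of 0.05, 0 of 5 members were called in either direction, against 0.412% of all genes called higher and 0.511% called lower. At an unadjusted limma p under 0.05 stood 1 of 5, Hoxa7, against 14.5% of all genes. In 2 of 5 members, Hoxa5 and Hoxa7, no array of one genotype reached into the range of the other, against 20.5% of all genes, and this held for 2 of the 10 probe sets, against 19.6% of all single-gene probe sets. The median log2 difference, mutant minus wild type, was 0.07 over the 5 members and 0.01 over all genes.

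Hoxa2, which patterns the hindbrain and the second branchial arch, has 1 probe set, 1419602_at, and read low. Its signals were 108, 48.0 and 64.8 in mutant-labelled replicates 1 to 3, against 69.9, 46.2 and 52.6 in wild-type replicates 1 to 3. The genotypes overlapped, and mutant-labelled replicate 1 was the highest array. The log2 difference was 0.27 with a 95% confidence interval from -0.39 to 0.92 (limma adjusted p = 0.725). Without that array the difference was 0.01.

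Hoxa3, known for its part in thymus and parathyroid formation, has 4 probe sets, and in the RefSeq table the span of its gene covers Hoxa4, Hoxa5 and Hoxa6. The brightest, 1452421_at, read 700, 921 and 841 in mutant-labelled arrays, against 1021, 918 and 501 in wild-type arrays. The wild-type arrays spread on both sides of the mutant-labelled ones, with wild-type replicate 1 the highest and wild-type replicate 3 the lowest of all 6. The log2 difference was 0.07, with an interval from -0.62 to 0.75 (limma adjusted p = 0.949). The probe set 1427433_s_at, annotated from the same transcript accession, read 97.7, 141 and 124 in mutant-labelled arrays, against 178, 89.5 and 73.4 in wild-type arrays. Here too wild-type replicate 1 was highest and wild-type replicate 3 lowest. The probe sets 1431392_at (3 values between 7.00 and 89.9 in mutant-labelled, and between 14.1 and 92.5 in wild-type arrays) and 1429398_at (between 5.20 and 76.9 in mutant-labelled, and between 3.10 and 54.3 in wild-type arrays) were dim, and the arrays of each genotype spread widely. The 4 probe sets gave log2 differences of 0.07, 0.15, -0.15 and 0.31, so they did not share a direction.

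Hoxa4, a gene of the cervical and thoracic axis, was dim on both of its probe sets. The probe set 1420226_x_at, which stands for the gene and whose suffix marks possible cross-hybridization, read 45.5, 29.1 and 91.0 in mutant-labelled arrays, against 76.4, 46.5 and 52.2 in wild-type arrays. The probe set 1427354_at read 85.8, 4.14 and 75.7 in mutant-labelled arrays, against 53.9, 38.2 and 50.1 in wild-type arrays. On both, the mutant-labelled arrays ran from below to above all wild-type arrays, with mutant-labelled replicate 2 the lowest. The log2 difference was -0.14 on each, and the interval for the gene ran from -0.94 to 0.66 (limma adjusted p = 0.901).

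Hoxa5, the member most closely tied to lung formation, was measured by a pair of probe sets that read above the median signal on every array. The brighter one, 1443803_x_at, read 290, 318 and 358 in mutant-labelled arrays, against 511, 381 and 388 in wild-type arrays. All mutant-labelled arrays lay below all wild-type arrays, with the nearest 2 at 358 and 381. The log2 difference was -0.38, with an interval from -0.82 to 0.06, and did not pass the threshold (limma adjusted p = 0.409). The other, 1448926_at, read 271, 203 and 225 in mutant-labelled arrays, against 311, 221 and 144 in wild-type arrays. On this probe set the genotypes overlapped and the log2 difference was 0.10, so the lower Hoxa5 reading rests on 1 of 2 probe sets, the one whose suffix marks possible cross-hybridization.

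Hoxa7, which patterns the thoracic axial skeleton, has 1 probe set, 1449499_at. It read 133, 141 and 169 in mutant-labelled arrays, against 75.5, 29.5 and 55.9 in wild-type arrays. Every mutant-labelled array was above every wild-type array, and the wild-type signals lay below the median signal of their arrays while the mutant-labelled ones lay above it. The means were 148 ± 19.2 in mutant-labelled and 53.6 ± 23.1 in wild-type arrays (SD, n = 3 each). The log2 difference was 1.29 ± 0.28 (SE), with an interval from 0.63 to 1.94, and missed the threshold (limma adjusted p = 0.0976). With a covariate for the fibroblast marker level the difference was 1.12 (limma adjusted p = 0.646), and with that of hematopoietic markers it was 0.13 (limma adjusted p = 0.984). Both marker levels separate the genotypes, so these fits cannot tell marker level and genotype apart, and in neither was any of the 18193 genes called by limma, with 1361 and 1116 at an unadjusted p under 0.05.

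**Figure D1:**
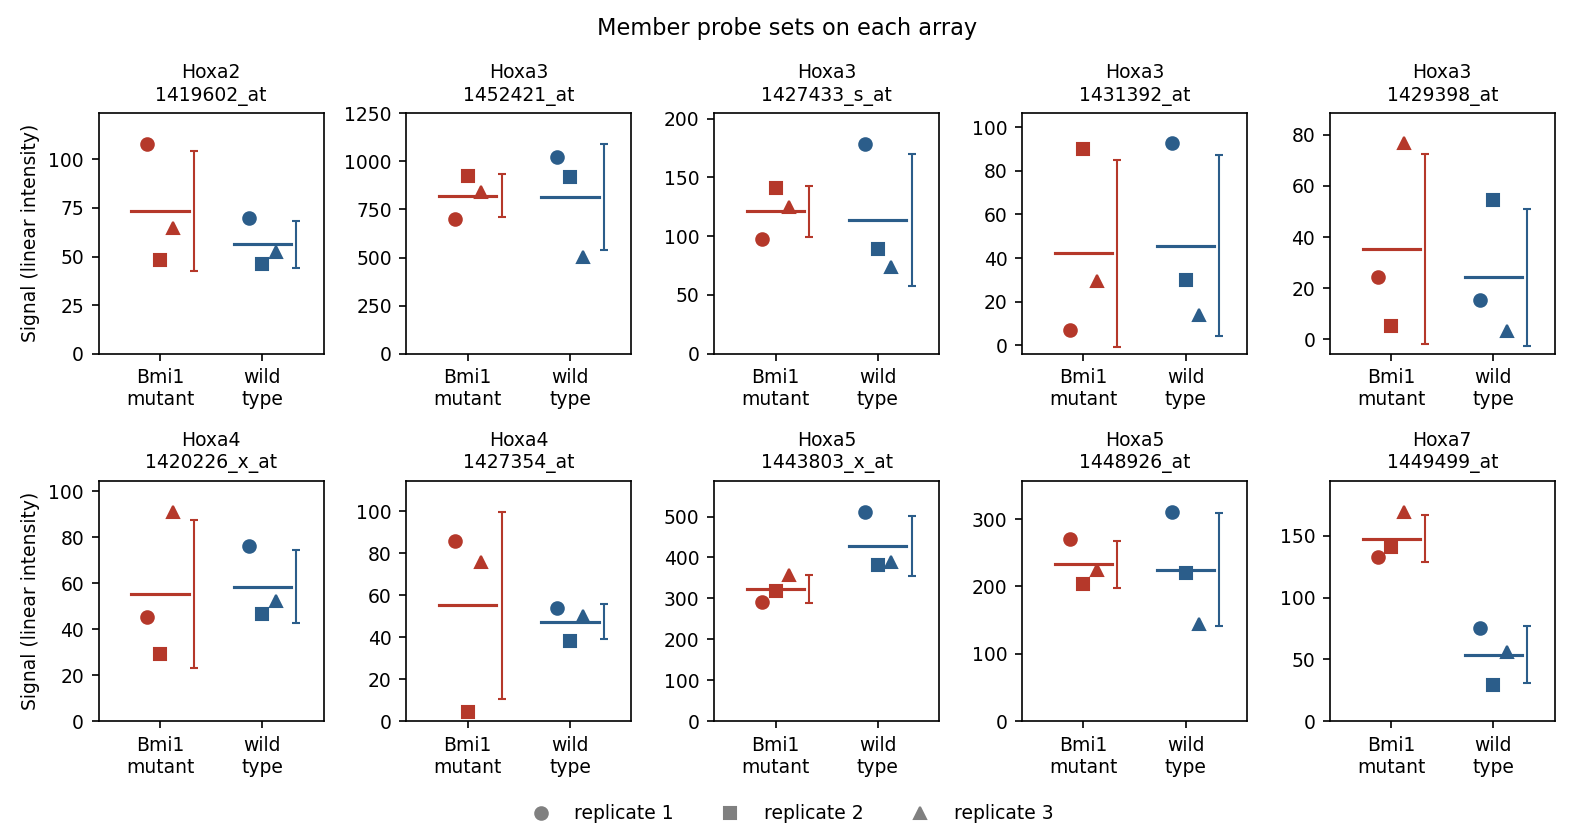
Linear signal of the 10 member probe sets on each array, 1 panel per probe set with its own vertical scale, with the mutant-labelled arrays in red on the left and the wild-type arrays in blue on the right; horizontal lines are means and bars are ± 1 SD over 3 arrays. Hoxa7 at 133 to 169 in mutant-labelled arrays lies above 29.5 to 75.5 in wild-type arrays, Hoxa5 on 1443803_x_at lies below, and the genotypes overlap in the other 8 panels.

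Read in cluster order by the brightest probe set of each gene, the differences were small from Hoxa2 to Hoxa5 and larger from Hoxa7 to Hoxa13. The log2 differences were 0.27 for Hoxa2, 0.07 for Hoxa3, -0.14 for Hoxa4, -0.38 for Hoxa5 and 1.29 for Hoxa7. On the 5′ side of Hoxa7 follow the posterior genes Hoxa9 (2.81), Hoxa10 (2.71), Hoxa11 (1.59) and Hoxa13 (2.43), and all 4 were called higher on the brightest probe set. In the same order their mean signals were 260, 114, 79.6 and 105 in mutant-labelled arrays. In wild-type arrays they were 23.9, 3.41, 14.9 and 7.16. At signals this low the size of a log2 difference depends on the offset. The other probe sets of Hoxa9 (1421579_at, 0.49) and Hoxa10 (1446408_at, 0.17) overlapped between the genotypes and were not called when probe sets were tested singly (limma adjusted p = 0.547 and 0.865), and Hoxa11 then had an adjusted p of 0.0557. In wild-type arrays alone, these other probe sets of Hoxa9 and Hoxa10 had the higher means, at 26.5 and 4.80. The brightest probe set of both genes was thus chosen through the mutant-labelled arrays, which favours a higher reading there. The flanking genes were not called, with the adaptor gene Skap2 on the 3′ side at 0.16 (limma adjusted p = 0.711) and the homeobox gene Evx1 on the 5′ side at -0.90 (limma adjusted p = 0.210). Evx1 was dim but did not overlap, at 5.16, 9.57 and 26.3 in mutant-labelled arrays, against 34.5, 43.9 and 32.7 in wild-type arrays. Another Skap2 probe set, 1457097_at, stood at -0.27, with every mutant-labelled array below every wild-type array. The remaining one, 1460623_at, stood at 0.10 with overlap. Tested singly, neither was called (limma adjusted p = 0.522 and 0.873). The upper bound of the interval for each of Hoxa2, Hoxa3, Hoxa4 and Hoxa5, at 0.92, 0.75, 0.66 and 0.06, lay below the lower bound of Hoxa9 at 2.25 on its brighter probe set, but the interval of the other, from -0.24 to 1.22, overlapped all 4.

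Differences between neighbours were tested within arrays, as the log2 signal of one gene minus that of the gene before it. Such a ratio shows unequal change between probe sets and no level of one gene against another. The ratio of Hoxa7 to Hoxa5 was higher by 1.67 on the log2 scale in mutant-labelled arrays, with means of -1.05 ± 0.04 in mutant-labelled and -2.72 ± 0.36 in wild-type arrays (SD, n = 3 each, two-sided exact permutation p = 0.1). On these probe sets Hoxa7 was higher and Hoxa5 lower in every mutant-labelled array than in any wild-type array. Their ratio was therefore bound to separate the genotypes, and its p adds nothing to the separations already given. The ratio of Hoxa9 to Hoxa7 was higher by 1.53, with means of 0.75 ± 0.31 in mutant-labelled and -0.78 ± 0.84 in wild-type arrays (SD, n = 3 each, two-sided exact permutation p = 0.1). With 3 arrays against 3 this is the smallest p the test allows, and over the 5 neighbouring pairs tested both had an adjusted p of 0.25. With the other probe sets, chosen after seeing the data, the ratio of Hoxa7 to Hoxa5 was higher by 1.19 (exact permutation p = 0.1), but that of Hoxa9 to Hoxa7 turned to -0.80 (exact permutation p = 0.2), so the step between Hoxa7 and Hoxa9 rests on 1 Hoxa9 probe set. For Hoxa3 to Hoxa2, Hoxa4 to Hoxa3 and Hoxa5 to Hoxa4 the ratios differed by -0.20, -0.20 and -0.25, with exact permutation p values of 0.6, 0.7 and 0.6.

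**Figure D2:**
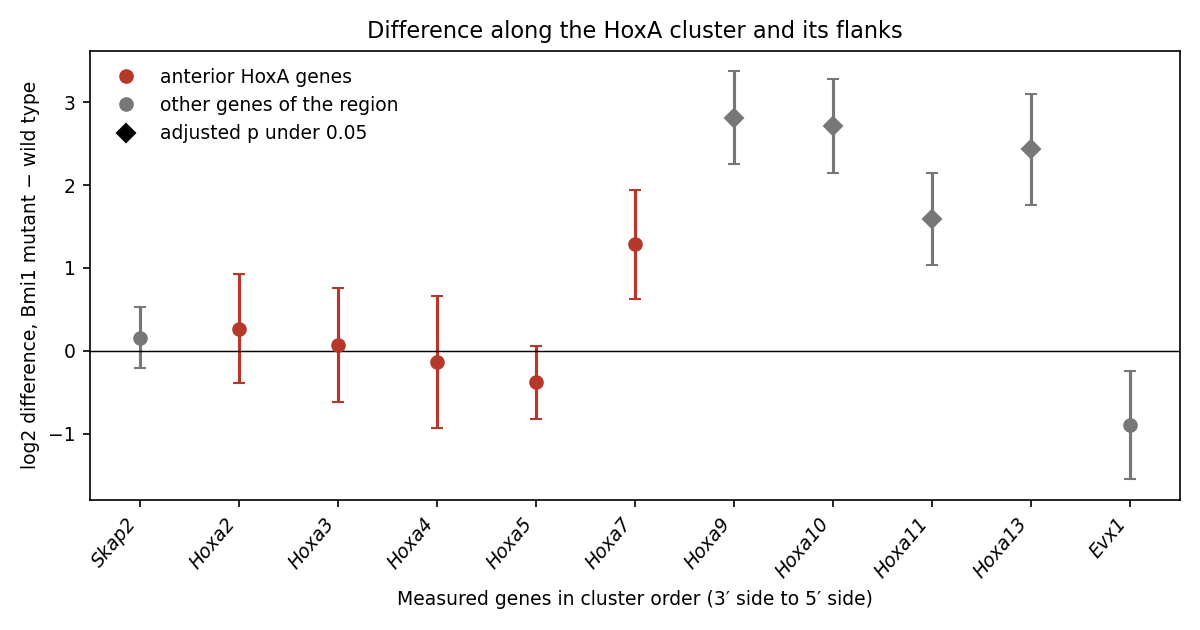
Log2 difference, mutant-labelled minus wild-type arrays, of the measured genes of the HoxA cluster and its flanks in genomic order; points are limma estimates, bars are 95% confidence intervals over 3 arrays per genotype, red marks the anterior HoxA genes and diamonds mark an adjusted p under 0.05. The intervals of Hoxa2 to Hoxa5 span 0, that of Hoxa7 runs from 0.63 to 1.94, and Hoxa9 to Hoxa13, each by its brightest probe set, lie between 1.59 and 2.81.

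The members' paralogs, genes at the same position in the other Hox clusters, mostly had differences above 0, with none called by limma. Of 11 listed, 10 were measured and 9 had a log2 difference above 0. An unadjusted limma p under 0.05 was found for 4, against 14.5% of all genes, and 0 passed the adjusted threshold. The median was 0.64 against 0.01 over all genes. The smallest p values belonged to Hoxb6 (log2 difference 0.73, limma adjusted p = 0.146), Hoxc4 (1.66, limma adjusted p = 0.258) and Hoxc6 (1.28, limma adjusted p = 0.288). In these 3 of the 10 measured the genotypes did not overlap, against 20.5% of all genes. Of the direct paralogs of Hoxa5 and Hoxa4, named here after their values were seen, Hoxb5 read 2509, 2227 and 2765 in mutant-labelled arrays, against 2557, 1508 and 810 in wild-type arrays. Hoxb4 read 794, 749 and 858 in mutant-labelled arrays, against 1048, 648 and 229 in wild-type arrays. In both, wild-type replicate 1 was the highest and wild-type replicate 3 the lowest wild-type array, while the HoxC paralogs ran otherwise. Hoxc4 read 164, 155 and 172 in mutant-labelled arrays, against 8.36, 36.9 and 125 in wild-type arrays, and Hoxc5 read 3.11, 33.6 and 35.9 in mutant-labelled arrays, against 20.1, 5.39 and 30.0 in wild-type arrays, so replicate 3 was the highest wild-type array of both.

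Partners and regulators of Hox genes gave no call by limma either. Of 9 listed TALE homeodomain genes, whose proteins bind DNA together with Hox proteins, 8 were measured, 4 lay above 0 and 4 below, 2 had an unadjusted p under 0.05 and 0 were called. Pknox1 had a log2 difference of -0.51 (limma adjusted p = 0.230), Pknox2 of 1.18 (limma adjusted p = 0.253) and Pbx4 of -0.39 (limma adjusted p = 0.424). In the retinoic acid pathway, the signal that switches on anterior Hox genes in the embryo, 16 of 18 listed genes were measured, 10 lay above 0 and 6 below, 2 had an unadjusted p under 0.05 and 0 were called. The retinaldehyde reductase gene Dhrs3 stood at -0.66 (limma adjusted p = 0.210). The retinoic acid synthesis gene Aldh1a3 stood at 2.52 (limma adjusted p = 0.230), with 1107, 338 and 78.5 in mutant-labelled arrays, against 59.8, 27.3 and 45.0 in wild-type arrays, and Aldh1a2 stood at 0.33 (limma adjusted p = 0.473). Of 13 listed trithorax group genes and H3K27 demethylases, which counter Polycomb, 12 were measured, 3 lay above 0 and 9 below, 0 had an unadjusted p under 0.05 and 0 were called. The methyltransferase genes Kmt2a, known to keep HoxA genes active, and Kmt2c stood at -0.34 and -0.40, and Wdr5 at 0.23 (limma adjusted p = 0.394, 0.402 and 0.665).

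Cell type markers differed between the arrays as well. Of 25 fibroblast markers 24 lay above 0 and 1, Col1a1, was called higher, with summed signals of 106121 to 113314 in mutant-labelled and 51225 to 98057 in wild-type arrays. Of 19 smooth muscle and pericyte markers 18 lay above 0 and 0 were called by limma, with 15 at an unadjusted p under 0.05 and summed signals of 29931 to 32856 in mutant-labelled and 13051 to 23850 in wild-type arrays. Of 27 measured hematopoietic markers 8 lay above 0 and 19 below, and 8 were called lower and 0 higher, with summed signals of 111923 to 143537 in mutant-labelled and 116936 to 150551 in wild-type arrays, although the cells had been sorted against CD45. The 8 called were genes of B cells (Ms4a1, Cd79a, Cd79b), of natural killer and T cells (Ncr1, Gzma, Gzmb, Cd8a) and Siglecf, while the myeloid genes S100a8 (log2 difference 1.46), Itgam (1.06) and S100a9, named after their values were seen, read higher in every mutant-labelled array than in any wild-type array and were not called (limma adjusted p = 0.0899, 0.229 and 0.115). S100a9 read 15014, 19193 and 10777 in mutant-labelled arrays, against 5997, 8070 and 6456 in wild-type arrays. The other myeloid genes of the list went both ways. Itgax read lower in every mutant-labelled array than in any wild-type array (-0.99, limma adjusted p = 0.0763). Marco (-0.38), Adgre1 (-0.29), Fcer1g (-0.24) and Chil3 (-0.01) lay below 0, with the genotypes overlapping. Cd68 (0.05), Lyz2 (0.10), Csf1r (0.25) and Cd14 (0.49) lay above 0, also with the genotypes overlapping. The median log2 difference was 0.62 for the fibroblast, 1.12 for the smooth muscle and pericyte and -0.42 for the hematopoietic list. Endothelial (median 0.03), epithelial (0.17) and mesothelial markers (0.04) had 0 called by limma, with 1 of 10, 3 of 18 and 0 of 5 at an unadjusted p under 0.05. Pecam1, the gene of CD31, read 2691 to 3185 in mutant-labelled and 1907 to 2829 in wild-type arrays, although the cells had been sorted against CD31. No marker read 0 on any array, but neither did any of the 18193 genes, so this says nothing about presence. Among the wild-type arrays, replicate 1 had the highest and replicate 3 the lowest mean of the fibroblast markers (10.9 and 9.86 on the log2 scale). By the brightest probe set of each gene, replicate 1 was also the highest wild-type array of all 5 measured members. The lowest was then replicate 3 for Hoxa3 alone and replicate 2 for Hoxa2, Hoxa4, Hoxa5 and Hoxa7. On the other Hoxa5 probe set, 1448926_at, wild-type replicates 1 to 3 read 311, 221 and 144, so replicate 3 was the lowest. Mean levels ran from 11.0 to 11.1 in mutant-labelled and from 9.86 to 10.9 in wild-type arrays for the fibroblast list, and from 10.4 to 10.7 in mutant-labelled and from 11.1 to 11.6 in wild-type arrays for the hematopoietic list. By these means both lists separated the genotypes, as did the smooth muscle and pericyte list and the epithelial list. The epithelial means ran from 11.6 to 11.7 in mutant-labelled and from 11.3 to 11.5 in wild-type arrays. The summed signals of the hematopoietic list, in contrast, overlapped between the genotypes. Cell mixture and genotype thus cannot be told apart in these arrays.

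**Figure D3:**
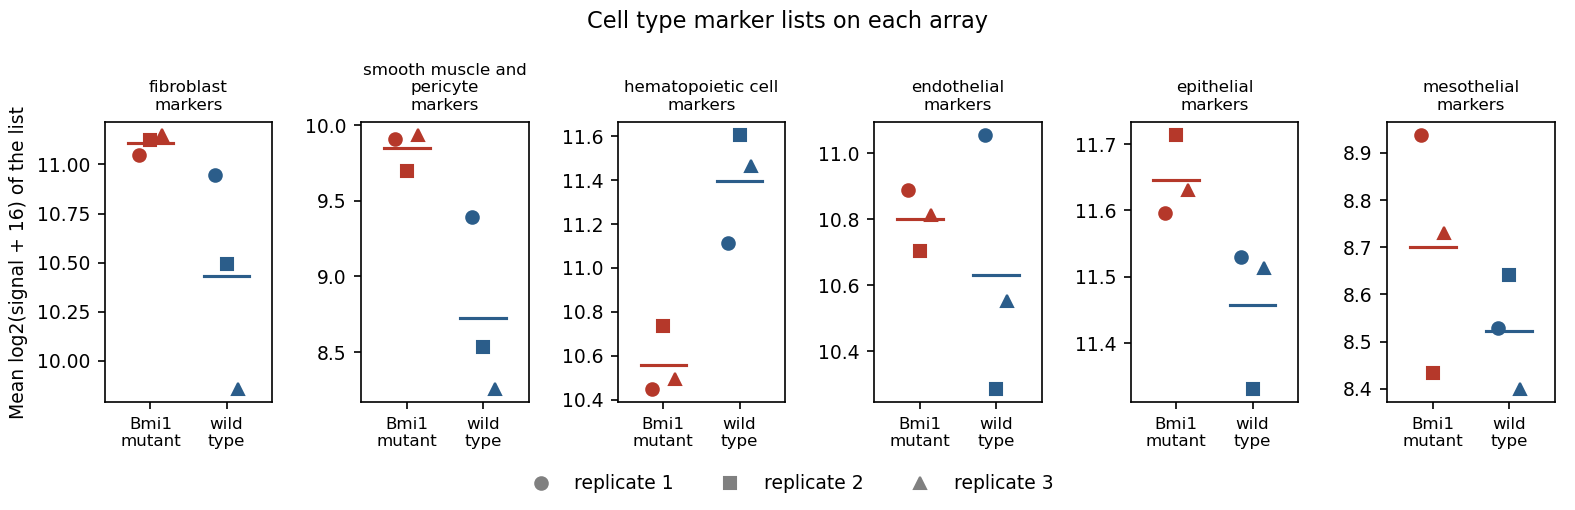
Mean log2(signal + 16) of 6 cell type marker lists on each array, 1 panel per list with its own vertical scale, with mutant-labelled arrays in red on the left and wild-type arrays in blue on the right; horizontal lines are means over 3 arrays. The means of the fibroblast, smooth muscle and epithelial lists are higher in every mutant-labelled array than in any wild-type array. That of the hematopoietic list is lower in every mutant-labelled array. In these lists wild-type replicate 1 is nearest to the mutant-labelled arrays.

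The genes most like each member over the 6 arrays were sought among 2228 genes at or above the median level that spanned at least 1 log2 unit, by Pearson's r as a description. For Hoxa5 (1443803_x_at) they were Mtm1 (r = 0.999), Ppp1r16b (0.983) and Kazald1 (0.963). For Hoxa7 they were Sorbs2 (0.991), Phka1 (0.991) and Kctd17 (0.983), and for Hoxa3 Rassf8 (0.976), Lrat (0.972) and Zfp592 (0.962). For the dim Hoxa2 they were Osbpl2, Adhfe1 and Cmss1 (0.961 to 0.974), and for Hoxa4 Morc4, Ddo and Vsnl1 (0.924 to 0.948). With 6 points and 2228 genes searched, the values are given without a test, and no gene was among the nearest 3 of more than 1 member.

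**Figure D4:**
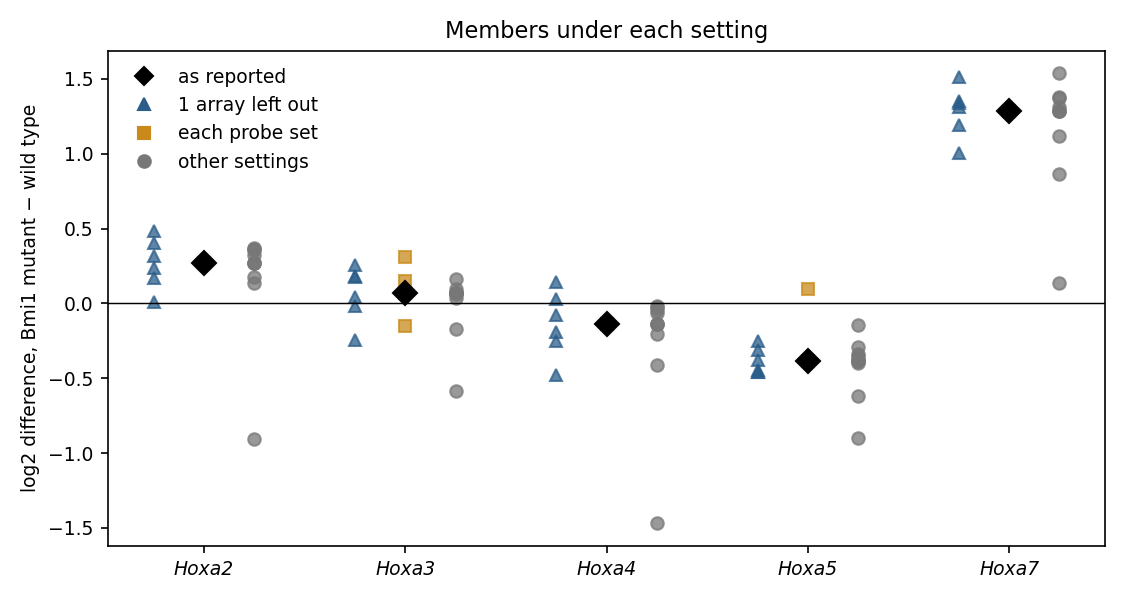
Log2 difference of the 5 measured members, mutant-labelled minus wild-type arrays, as reported (diamonds), with 1 array left out (triangles), for each probe set (squares) and under the other settings (circles). Hoxa7 ran from 0.13 to 1.54 over 17 alternatives. Because its arrays did not overlap between the genotypes, leaving out 1 array or changing the offset could not turn its direction. Hoxa3, whose arrays overlapped, crossed 0 in 5 of 21.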

How the data were processed

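The deposited values are linear probe-set intensities, which the authors made with Affymetrix Expression Console, version 1.1 (per the submitters' processing notes). Their summarization and background steps are not stated in the notes. Of 45101 probe sets, 64 controls, 932 with several genes and 9160 with none were left out. The rest were turned to log2(signal + 16), and the probe set with the highest mean over all 6 arrays stood for its gene. The offset understates folds of dim genes. Genes were compared in R 4.3.3 with limma 3.58.1 (lmFit, then eBayes), mutant minus wild type, without covariates, and the fit was tested on simulated data. Members and lists were chosen with earlier results of these data known. Named list genes are those called, otherwise the 3 with the smallest p. Alternatives were normalization, offset, filter, probe sets, prior, weights, covariates and leaving out arrays. Replicate numbers were not taken as pairs, since same-numbered arrays deviated together at correlations of 0.124, 0.063 and 0.079, not all over 0.1. The correlations of differently numbered arrays were all below 0, from -0.069 to -0.011. Deviations were taken from each genotype's own mean, which pushes these correlations below 0 when the same-numbered ones are positive. They are thus no separate evidence of pairing. A fit with a replicate block is given among the alternatives because the same-numbered correlations were positive. Gene order comes from RefSeq (GRCm38.p6). The number of arrays limits the precision. Figures were drawn with matplotlib 3.10.9.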

Additional observations from a re-analysis of the deposited data

How the results depend on the processing

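The counts of 0 members called higher and 0 called lower were the same in all alternatives run. Hoxa2, Hoxa4 and Hoxa7 fell out of the filter at the median level. Directions turned for Hoxa2 with the hematopoietic covariate (-0.91) and for Hoxa3 with the fibroblast (-0.59) and hematopoietic covariates (-0.17), without mutant replicate 2 (-0.02), without wild-type replicate 3 (-0.24) and on probe set 1431392_at (-0.15). They also turned for Hoxa4 without mutant replicate 2 (0.15) or wild-type replicate 1 (0.03), and for Hoxa5 on probe set 1448926_at (0.10). The ratio of Hoxa9 to Hoxa7 turned with Hoxa9 probe set 1421579_at (-0.80), an alternative chosen after seeing the data. With 1 array left out, log2 differences ranged from 0.007 to 0.48 for Hoxa2, from -0.24 to 0.26 for Hoxa3, from -0.48 to 0.15 for Hoxa4, from -0.46 to -0.25 for Hoxa5 and from 1.01 to 1.51 for Hoxa7. Hoxa7 had adjusted p values from 0.0714 (median centring) to 0.984 (hematopoietic covariate), and 0.86 and 1.54 as log2 differences at offsets of 64 and 1. Over all genes, 168 were called as reported, against 33 at an offset of 1, 265 at an offset of 64, 284 among brighter genes and 438 with a trend prior. Between 2 and 76 were called without 1 array, and 0 with the replicate block or either covariate. With the replicate block, Hoxa7 stayed at 1.29 (adjusted p = 0.161), and no member's call changed. The causes were not tested.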
